A study of Sus scrofa with 6 samples.

Results

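Epithelial and mesenchymal cells differ in a small set of structural genes, and 10 of these identity genes were compared here between the intestinal porcine epithelial cell lines IPEC-J2 and IPEC-1. The genes were fixed by name, with earlier results of these data known. Each probe set of the Affymetrix Porcine Genome Array that carried one of these symbols and no other was used. This gave 16 of 23999 probe sets, 6 for the 4 epithelial genes KRT8, KRT18, EPCAM and CDH1 and 10 for the 6 mesenchymal genes VIM, TAGLN, MYL9, FN1, COL1A2 and MFAP5. Of these probe sets, 13 had a signal on at least 1 array and were tested. The other 3, 2 of FN1 and 1 of COL1A2, stood at the lowest value of the table on all 6 arrays. Each of the 10 genes kept at least 1 tested probe set.

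IPEC-J2 and IPEC-1 are spontaneously immortalised, untreated lines that came from newborn piglets' small intestine, and each is 1 line, so that a difference between them is one between these cultures and not between tissues. Both were grown as polarised monolayers on membrane inserts in the same medium with fetal calf serum, insulin-transferrin-selenium and epidermal growth factor. The study set out to characterise both lines by their gene expression, structure and metabolism, and the arrays hold 3 cultures of IPEC-J2 and 3 of IPEC-1 with 500 ng of RNA each. The labels give 7 days of culture and a single cell bank number that both lines share, whereas the methods give a longer culture and separate numbers.

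In epithelial cells, keratins 8 and 18 pair in equal amounts to form the intermediate filaments of the cytoplasm, E-cadherin (CDH1) joins neighbouring cells at adherens junctions, and EPCAM is a surface glycoprotein of the lateral membrane. Mesenchymal cells build their filaments from vimentin (VIM), contract through actin and myosin with proteins such as transgelin (TAGLN) and the regulatory light chain MYL9, and lay down a matrix of fibronectin (FN1), type I collagen (with COL1A2 as 1 of its chains) and microfibrils (with MFAP5). Cultured epithelial cells often carry some of these mesenchymal transcripts as well, vimentin and fibronectin in particular.

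The deposited values are log2 signals with a floor of exactly 4.00, and signals at this floor carry no order. The floor held 40.5 to 48.3% of the probe sets on an array, most on IPEC-J2 replicate 1, which also had the lowest median signal (5.37, against 6.18 to 6.53 on the other arrays). Differences are IPEC-J2 minus IPEC-1 on the log2 scale, tested by limma over 16322 probe sets, and a probe set was called higher or lower under a Benjamini-Hochberg adjusted p of 0.05. Over all probe sets tested, 8.79% were called higher and 10.2% lower, or 19% in either direction. Of the 13 tested probe sets of the identity genes, 2 were called (15.4%), both mesenchymal and both lower in IPEC-J2. The signals of the lines did not overlap in 8 of the 13 (61.5%), against 41.3% of all probe sets. All IPEC-J2 arrays lay above in 1 epithelial and 1 mesenchymal probe set (17.4% of all probe sets) and below in 2 epithelial and 4 mesenchymal ones (23.9% of all). With 3 arrays a line, no exact permutation p can fall under 0.1. The cultures came from independent experiments per the methods, and p-values speak only for the spread among them. Where a line stood at the floor throughout, its signals have no spread, and the p-value is no measure of the spread in that line. In RNA from whole cultures, fewer cells of a kind and less RNA per cell cannot be told apart.

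Apart from a dim probe set of CDH1, the epithelial genes had signals above 11 in both lines, and none of their 6 probe sets was called by limma (0 also at an unadjusted p under 0.05). Of all 16322 probe sets tested, 2426 were higher and 3057 lower at an unadjusted p under 0.05 from limma. KRT8, the type II keratin of simple epithelia, had signals of 13.22, 13.12 and 13.00 on the arrays of IPEC-J2 replicates 1, 2 and 3 and of 13.39, 13.47 and 13.24 on those of IPEC-1 from its brighter probe set. The IPEC-J2 arrays all lay below the IPEC-1 arrays, by 0.25 on average (95% interval of the difference -0.57 to 0.06, adjusted p = 0.215 from limma). The dimmer KRT8 probe set had 11.78, 12.03 and 11.62 in IPEC-J2 and 11.98, 11.59 and 11.59 in IPEC-1. These values overlapped, with a difference of 0.09 (-0.36 to 0.54), so that the probe sets of the same keratin ran in opposite directions within their error.

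KRT18, the type I partner of KRT8, had 12.24, 12.38 and 12.26 in IPEC-J2 and 12.74, 12.61 and 12.42 in IPEC-1. Its signals on every IPEC-J2 array lay below those on any IPEC-1 array, and the difference of -0.30 (-0.62 to 0.03, adjusted p = 0.174 from limma) was close to that of the brighter KRT8 probe set. The interval of KRT18 allows a level in IPEC-J2 between 1.54-fold lower and 1.02-fold higher. That of KRT8 runs between 1.48-fold lower and 1.04-fold higher for the brighter probe set and up to 1.453-fold higher for the dimmer one. EPCAM had 13.52, 13.53 and 13.60 in IPEC-J2 and 13.34, 13.46 and 13.37 in IPEC-1. Here the IPEC-J2 arrays were all above the IPEC-1 arrays, by 0.16 (-0.10 to 0.42, adjusted p = 0.340 from limma), and the interval ends at 1.34-fold.

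CDH1 had the smallest difference of all 13 probe sets. Its brighter probe set gave 12.64, 12.60 and 12.70 in IPEC-J2 and 12.69, 12.47 and 12.73 in IPEC-1, with overlapping values and a difference of 0.017 (-0.29 to 0.32, limma adjusted p = 0.946). Of all tested probe sets, 97.6% had a larger absolute difference. A dimmer probe set of CDH1 stood at the floor on IPEC-J2 replicate 1 and likewise on IPEC-1 replicate 2 and read between 6.71 and 7.22 on the other 4 arrays, so that its difference had an interval of -3.29 to 2.84. These 2 arrays share a note in their description labels and held the largest shares of probe sets at the floor, 48.3% and 44.5%. The part of this in the signal was not tested.

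**Figure D1:**
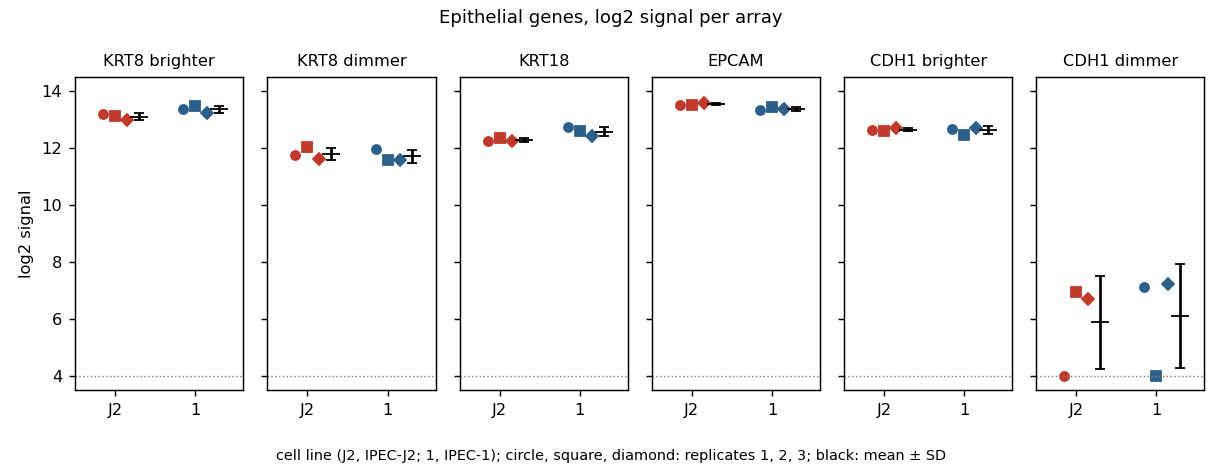
Log2 signal per array for the 6 probe sets of the epithelial genes in IPEC-J2 (red) and IPEC-1 (blue), with the mean and SD of 3 arrays in black and the floor of 4.00 as a dotted line. Apart from the dimmer CDH1 probe set, which lies at the floor on 1 array of each line, the arrays of both lines lie within a narrow band, 13.52 to 13.60 in IPEC-J2 and 13.34 to 13.46 in IPEC-1 for EPCAM.

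Of the mesenchymal genes, MFAP5 alone was measured in 1 line only. MFAP5 encodes a glycoprotein of the microfibrils that surround elastic fibres. It stood at the floor throughout IPEC-J2 and had 9.72, 10.05 and 9.66 in IPEC-1, a mean of 9.81 ± 0.21 (SD, n = 3). It was lower in IPEC-J2 (adjusted p = 3.00e-05 from limma, with no spread at the floor in IPEC-J2). Since the floor is no level, the fold is a lower bound. The signal that a probe set can reach on 1 array of IPEC-J2 while it is at the floor on the other 2 arrays had a 95th percentile of 7.78, and 7.85 in IPEC-1. Against the level of 7.78, MFAP5 in IPEC-J2 was at least 4.08-fold lower.

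MYL9, the regulatory light chain of smooth muscle and non-muscle myosin, had 8.40, 7.54 and 7.60 in IPEC-J2 and 9.64, 9.34 and 8.95 in IPEC-1. All IPEC-J2 arrays lay below all IPEC-1 arrays, with IPEC-J2 replicate 1 the nearest to them. The means of 7.85 ± 0.48 in IPEC-J2 and 9.31 ± 0.35 in IPEC-1 (SD, n = 3 each) differed by -1.46 (SE 0.308, adjusted p = 0.0289 from limma), a 2.76-fold lower level in IPEC-J2. The IPEC-J2 signals of 7.54 and 7.60 lie below the level of 7.78 that a probe set at the floor can reach on a single array. The call ended without IPEC-J2 replicate 2 (adjusted p = 0.0836) or 3 (0.0968) and without IPEC-1 replicate 1 (0.0832) or 2 (0.0853), while the difference stayed between -1.74 and -1.30.

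TAGLN, which binds and bundles actin filaments and marks smooth muscle and myofibroblasts, had 7.26, 7.10 and 4.00 in IPEC-J2 and 10.14, 9.81 and 8.08 in IPEC-1. The lines did not overlap, but each was spread widely, with IPEC-J2 replicate 3 at the floor and IPEC-1 replicate 3 well below the other IPEC-1 arrays. The remaining IPEC-J2 signals of 7.26 and 7.10 lie below the level of 7.78. The difference of -3.22 had an SE of 1.07 and did not pass (adjusted p = 0.0973 from limma). Without the array at the floor it was -2.16, and it missed the threshold whichever array was left out (adjusted p of 0.105 to 0.231).

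VIM, the intermediate filament protein of mesenchymal cells, had 10.95, 11.63 and 11.85 in IPEC-J2 and 13.06, 12.17 and 13.35 in IPEC-1. Every IPEC-J2 array was below every IPEC-1 array, with IPEC-1 replicate 2 the nearest to IPEC-J2. The means were 11.48 ± 0.47 in IPEC-J2 and 12.86 ± 0.61 in IPEC-1 (SD, n = 3 each). The difference of -1.38 (-2.37 to -0.39) corresponds to a ratio of 2.61 of IPEC-1 over IPEC-J2 and missed the threshold (adjusted p = 0.0669 from limma). It passed in 7 of 20 other settings, among them quantile normalization (adjusted p = 0.0457) and the fit without IPEC-1 replicate 2 (difference -1.73, adjusted p = 0.0413). The settings in which VIM passed include the methods' t-test without adjustment, and after adjustment VIM did not pass by that test. VIM and TAGLN were not low on the same arrays, since IPEC-J2 replicate 3 and IPEC-1 replicate 3 had the lowest TAGLN and the highest VIM signals of their lines.

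**Figure D2:**
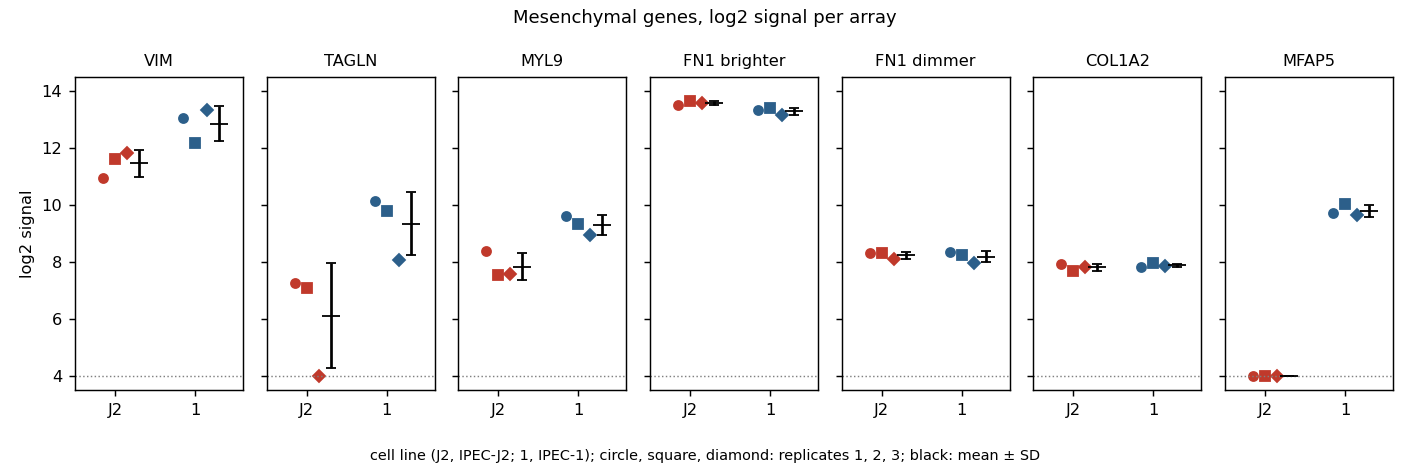
Log2 signal per array for the 7 tested probe sets of the mesenchymal genes in IPEC-J2 (red) and IPEC-1 (blue), with the mean and SD of 3 arrays in black and the floor of 4.00 as a dotted line. MFAP5 is at the floor throughout IPEC-J2, for VIM, TAGLN and MYL9 each IPEC-J2 array lies below every IPEC-1 array, and FN1 and COL1A2 lie at nearly the same height in both lines.

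The matrix genes FN1 and COL1A2 did not follow MFAP5. FN1, the fibronectin that cells assemble into fibrils at their surface, had 13.51, 13.65 and 13.59 in IPEC-J2 and 13.33, 13.42 and 13.17 in IPEC-1 from its brightest probe set. All IPEC-J2 arrays lay above all IPEC-1 arrays, by 0.28 (-0.02 to 0.58, adjusted p = 0.173 from limma). The other tested FN1 probe set had 8.33, 8.31 and 8.11 in IPEC-J2 and 8.36, 8.24 and 7.99 in IPEC-1 and overlapped, with a difference of 0.053 (-0.32 to 0.42). COL1A2, the alpha-2 chain of type I collagen, had 7.94, 7.70 and 7.82 in IPEC-J2 and 7.83, 7.96 and 7.87 in IPEC-1. Its difference was -0.067 (-0.36 to 0.23, adjusted p = 0.701 from limma), and its signals lie around the levels of 7.78 and 7.85 that a probe set can reach on a single array.

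The plot of the differences shows the order of the genes. On the log2 scale, the 6 epithelial probe sets ran between -0.30 and 0.16 with a median of -0.11. The 7 mesenchymal probe sets ran between -5.81, with the floor taken as the signal of MFAP5, and 0.28 with a median of -1.38, which is the value of VIM. Over all probe sets tested, the median difference was -0.07. The intervals of VIM, TAGLN and MYL9 overlap, so that the order among these 3 genes is not set. Among all probe sets tested, a larger absolute difference was found for 11.3% in the case of MYL9 and 12.4% for VIM, against 67.6% for the brightest FN1 probe set and 65.8% for KRT18.

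**Figure D3:**
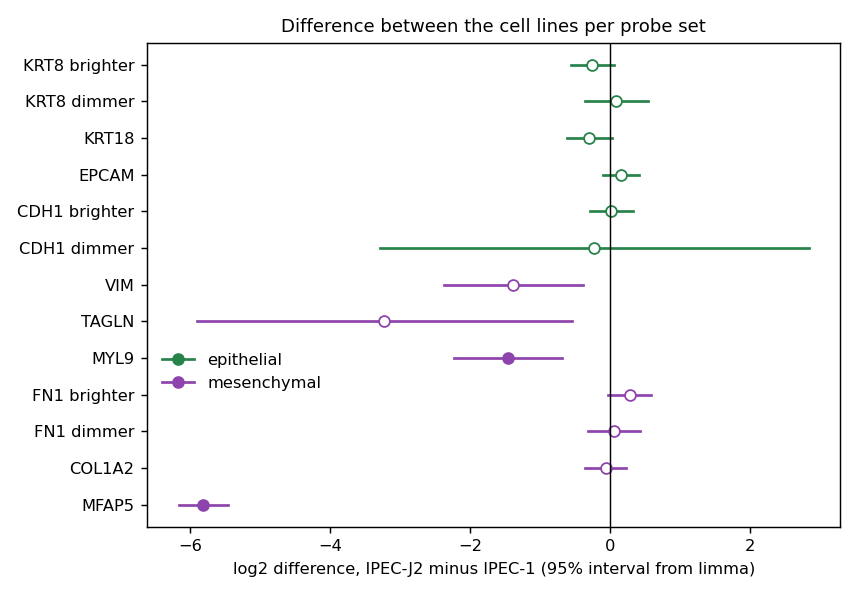
Log2 difference (IPEC-J2 minus IPEC-1) of each tested probe set with its 95% interval from limma, epithelial genes in green and mesenchymal genes in purple, with filled points for probe sets under an adjusted p of 0.05. MFAP5 (-5.81, with the floor taken as the signal) and MYL9 (-1.46) are filled, and the intervals of all epithelial probe sets include 0.

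IPEC-J2 replicate 3 and IPEC-1 replicate 1 share a note in their labels, called note A here, and IPEC-J2 replicate 1 and IPEC-1 replicate 2 share note B. Within notes A and B the difference was -1.21 and -1.22 for VIM, -6.14 and -2.55 for TAGLN, -2.04 and -0.94 for MYL9, and -5.72 and -6.05 for MFAP5. The IPEC-J2 signals of the 4 genes lay below those of IPEC-1 in both pairs, with TAGLN resting on the floor in note A. KRT18 had -0.48 and -0.37 and the brighter KRT8 probe set -0.39 and -0.25, while the dimmer KRT8 probe set changed sign, with -0.36 and 0.19. The values were 0.26 and 0.06 for EPCAM and 0.26 and 0.09 for the brightest FN1 probe set. In all, 10 of the 13 probe sets had the sign of their overall difference in both notes. The pairs are among the arrays that gave the overall differences. Where the lines did not overlap, the sign within each pair was fixed by that and is no separate support.

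Genes that act beside the 10 identity genes were compared as gene means over probe sets, as in the methods. Of 5513 genes tested, 12% were called higher and 13.8% lower in IPEC-J2, or 25.8% in either direction, with a median difference of -0.05. Counts of list genes at an unadjusted p have no share over all genes beside them and are not read as an excess. Of 5 other intermediate filament genes, 2 were lower and 1, the lamin gene LMNA, was higher. KRT19, a type I keratin that like KRT18 pairs with KRT8, had 12.26, 12.33 and 12.24 in IPEC-J2 and 13.17, 12.99 and 13.07 in IPEC-1 and was 1.74-fold lower in IPEC-J2 (adjusted p = 0.00363 from limma). SYNM, which encodes synemin, a filament protein that assembles with vimentin, was at the floor throughout IPEC-J2 and had 7.09, 6.71 and 6.92 in IPEC-1 (adjusted p = 8.72e-05 from limma), without a lower bound above 1. Desmin (DES), the filament gene of muscle, was at the floor on every array.

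For the adherens junction that E-cadherin forms, 1 of 7 partner genes was higher and 2 were lower, vinculin (VCL) and beta-catenin (CTNNB1). The 5 probe sets of CTNNB1 ran in both directions, with 0.32 for the brightest (adjusted p = 0.0967 from limma) and -2.29 for the lowest. CDH11, a cadherin of mesenchymal cells, was at the floor throughout IPEC-1 with all its 3 probe sets, and the brightest of them had 9.67, 10.22 and 10.03 in IPEC-J2, which is at least 4.36-fold higher. Of 22 other epithelial genes of the surface, junctions and splicing, 4 were higher (18.2%), the claudins CLDN3 and CLDN7, the membrane protease matriptase (ST14) and its inhibitor SPINT1. By limma 0 were lower, 8 had an unadjusted p under 0.05 in either direction, and the median difference was 0.12. The count of 0 moved in 11 of 18 other settings, to 2 after quantile normalization, 3 with the note as a random block and 4 by the methods' t-test without adjustment, and to 2 without IPEC-1 replicate 1 and 1 without IPEC-J2 replicate 1 or IPEC-1 replicate 2. A single probe set of occludin (OCLN) was lower (difference -0.86, adjusted p = 0.00730 from limma), while its gene mean over 3 probe sets did not pass (adjusted p = 0.0703). CLDN3 was at the floor throughout IPEC-1 and had 8.37, 8.47 and 8.01 in IPEC-J2 from its brighter probe set, at least 1.35-fold higher. The other CLDN3 probe set was at the floor on every array.

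Of 21 other contractile and actin-binding genes, which work with MYL9 and TAGLN, 7 were lower (33.3%), among them CALD1, TPM1, ACTG2 and VCL, and 2 were higher, TPM4 and TAGLN2. For ACTG2 neither probe set passed (adjusted p = 0.440 and 0.192 from limma), all its signals lay between 4.00 and 6.89, under the levels of 7.78 and 7.85, and its call ended in 12 of 17 other settings. The bright probe sets of TPM1 did not pass (adjusted p = 0.128 and 0.120 from limma). Its dim probe set passed, with the floor throughout IPEC-J2 and 5.65, 6.36 and 6.07 in IPEC-1, under the level of 7.85. The median difference of the list was -0.22, or -0.05 with genes at the floor in 1 line set to their bounds. CALD1, the gene of caldesmon, which restrains myosin on actin filaments, had 10.24, 10.19 and 10.41 in IPEC-J2 and 12.02, 11.88 and 11 in IPEC-1 from its brighter probe set, with IPEC-1 replicate 3 the lowest of its line as for TAGLN and MYL9. TAGLN2, a relative of TAGLN, had 12.24, 12.52 and 12.27 in IPEC-J2 and 11.7, 11.68 and 11.53 in IPEC-1 and was 1.63-fold higher (adjusted p = 0.0113 from limma), opposite in sign to TAGLN. The count of lower genes in this list was 4 without IPEC-J2 replicate 1, 3 without IPEC-J2 replicate 2, IPEC-1 replicate 1 or IPEC-1 replicate 3, 2 without IPEC-1 replicate 2 and 1 without IPEC-J2 replicate 3.

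**Figure D4:**
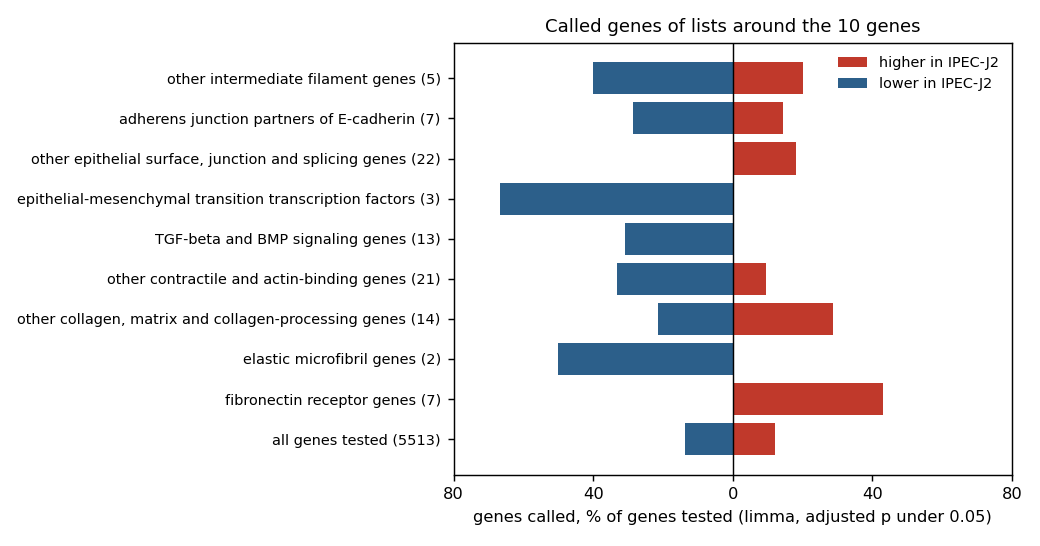
Percent of the tested genes of each list, with their number in brackets, that were called higher (red, to the right) or lower (blue, to the left) in IPEC-J2 than in IPEC-1, and the same for all 5513 genes in the bottom row. Contractile and actin-binding genes have 33.3% lower, and fibronectin receptors 42.9% higher, where all genes have 13.8% lower and 12% higher. The lists were chosen with earlier results of these data known, so that a share above that of all genes is no test.

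The matrix around FN1, COL1A2 and MFAP5 went both ways. Of 14 other collagen, matrix and collagen-processing genes, 4 were higher (28.6%), SERPINH1, SPARC, LOX and P4HA2, and 3 were lower (21.4%), POSTN, THBS3 and COL5A1, while 11 more were at the floor on every array. For COL5A1 only the brightest probe set passed. It was at the floor throughout IPEC-J2 and had 7.53, 7.52 and 7.47 in IPEC-1, under the level of 7.85 and without a lower bound. The other COL5A1 probe sets did not pass or were at the floor on every array. SERPINH1, the chaperone of collagen in the endoplasmic reticulum, had 9.65, 9.83 and 9.69 in IPEC-J2 while IPEC-1 stood at the floor, at least 3.66-fold higher (limma adjusted p = 4.01e-06). POSTN, which encodes periostin, had 4.00, 4.00 and 5.03 in IPEC-J2 and 9.13, 8.53 and 9.06 in IPEC-1 from its brighter probe set. Beside MFAP5, 5 microfibril genes had a probe set, and FBN1, MFAP2 and EFEMP2 were at the floor on every array. FBLN1, the gene of fibulin-1, stood at the floor throughout IPEC-J2 as MFAP5 did and had 8.64, 8.27 and 8.52 in IPEC-1, at least 1.62-fold lower (limma adjusted p = 2.09e-05). Of 7 fibronectin receptor genes, 3 were higher (42.9%), the integrin subunits ITGB3 and ITGAV and the syndecan SDC4, and none was lower by limma, with 4 at an unadjusted p under 0.05.

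Regulators of epithelial-mesenchymal transition could be read in part only. Of 17 transcription factors, 9 had a probe set, and 6 of these were at the floor on every array, among them TWIST2, PRRX1 and TCF4. ID1 and ID3, inhibitors of basic helix-loop-helix factors and targets of BMP signaling, were lower, ID1 at an adjusted p of 0.04995 from limma. Of 13 genes of TGF-beta and BMP signaling, 4 were lower (30.8%), TGFB2, TGFBR3, BMP4 and TGIF1, and 0 were higher by limma, with 7 at an unadjusted p under 0.05 in either direction. The count of 0 moved in 8 of 18 other settings, to 3 after quantile normalization or with arrays set to the same 75th percentile and to 2 without IPEC-J2 replicate 1. The growth factor TGFB2 was at the floor throughout IPEC-J2 with all its 4 probe sets, and the brightest had 9.15, 9.05 and 8.85 in IPEC-1, at least 2.36-fold lower in IPEC-J2. TGFBR3 was also at the floor throughout IPEC-J2 and had 6.41, 6.06 and 6.54 in IPEC-1, without a lower bound. Without IPEC-J2 replicate 3 the call ended for LMNA, VCL, SPINT1, ACTG2, CALD1, TPM1, TPM4, P4HA2, SDC4, ID1 and TGIF1 (adjusted p of 0.05 to 0.141 from limma), and without IPEC-J2 replicate 2, IPEC-1 replicate 1 or IPEC-1 replicate 3 for CLDN7 (0.0501 to 0.0547). Each of the other arrays ended some of these calls as well.

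Markers of other cell types that a culture could hold were read beside these genes. Of 6 fibroblast markers with a probe set, DCN, LUM and COL3A1 were at the floor on all arrays and THY1 and S100A4 were higher in IPEC-J2. THY1, a surface glycoprotein of fibroblasts and some other cells, was at the floor throughout IPEC-1 with all its 3 probe sets, and the brightest had 11.87, 12.12 and 11.80 in IPEC-J2, at least 16.9-fold higher. S100A4, a calcium-binding protein of motile cells, had 8.77, 9.56 and 9.10 in IPEC-J2, at least 2.45-fold higher. The gene mean of PDGFRB lay between 4.00 and 5.09 in IPEC-J2 and between 5.36 and 5.68 in IPEC-1. The signals of the 6 fibroblast markers, taken off the log scale and summed, were 1185 to 1725 in IPEC-J2 and 121 to 131 in IPEC-1. Only THY1 and S100A4 made this sum higher in IPEC-J2. The sums of other markers were lower in IPEC-J2, 64 to 77 against 85 to 121 for smooth muscle. They were 96 to 109 against 130 to 139 for endothelial and 80 to 91 against 113 to 134 for leukocyte markers. A gene at the floor adds 16 to a sum, so these sums, and the fibroblast sum of IPEC-1, are mostly floor. Above the floor lay only the dim signals of ACTG2 for smooth muscle, PECAM1 for endothelial and CD3E and CD14 for leukocyte markers. These lower sums are thus not read as less of a cell type. The enterocyte sums overlapped, and goblet and enteroendocrine markers stood at the floor. Of the smooth muscle markers, 3 of 4 were at the floor on all arrays, as were 5 of 6 endothelial and 3 of 5 leukocyte markers, including the pan-leukocyte gene PTPRC and the endothelial genes CDH5 and VWF. MYL9 and MFAP5 were thus lower and THY1 and S100A4 higher in IPEC-J2, and the part of other cell types in these differences was not tested. For all 39 genes of these lists that were called, the difference had the same sign within note A and within note B. The arrays of these notes also gave the calls, so that the shared sign is no separate support.

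**Figure D5:**
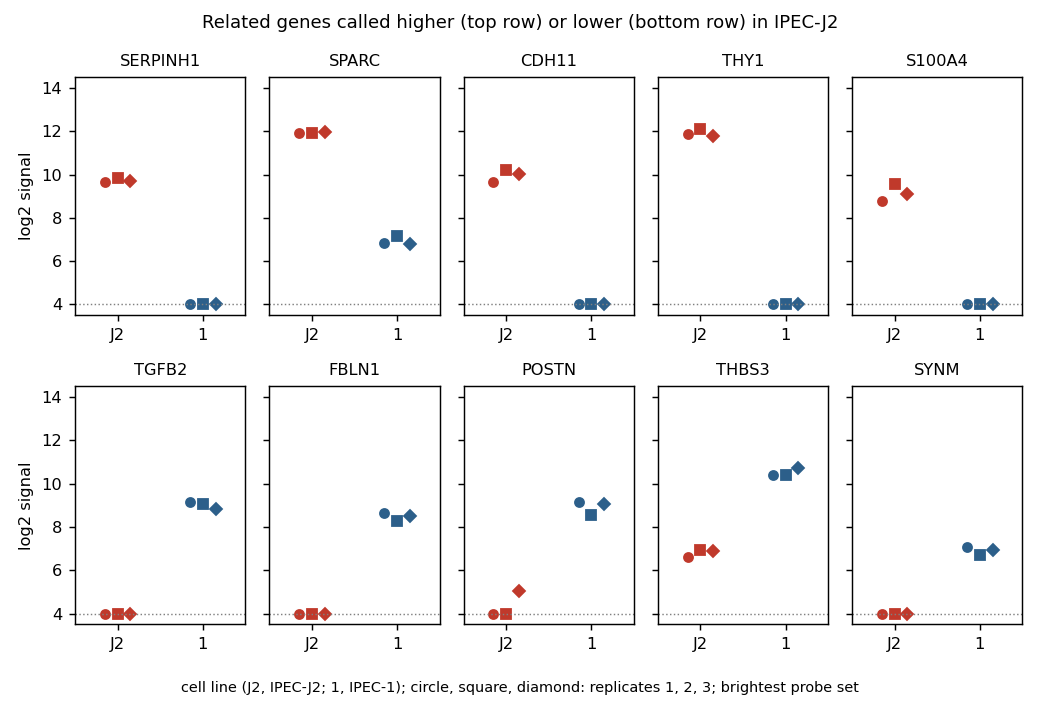
Log2 signal per array of the brightest probe set for 5 related genes called higher (top row) and 5 called lower (bottom row) in IPEC-J2 (red) than in IPEC-1 (blue), with the floor of 4.00 as a dotted line. SERPINH1, CDH11, THY1 and S100A4 are at the floor throughout IPEC-1, and TGFB2, FBLN1 and SYNM are at the floor throughout IPEC-J2.

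The genes whose signals moved most like those of the identity genes over the 6 arrays were found by the Euclidean distance between signals centred on their means, among up to 7560 probe sets with 1 symbol that could be compared. For MFAP5 these were SLC46A1, a folate transporter, and METRNL, at distances of 0.457 and 0.782, both at the floor throughout IPEC-J2. For VIM they were ATRX, a chromatin remodeler, and the checkpoint kinase CHEK2, at 0.400 and 0.441, and both shared with VIM the lowest signal on IPEC-J2 replicate 1 and the highest on IPEC-1 replicate 3. The nearest gene was PSMD11, a proteasome subunit, for KRT18 (0.0611), TXNDC9 for EPCAM (0.0542) and CLCN3, a chloride transporter, for FN1 (0.0385). It was EMC4 for KRT8 (0.0673), INTS3 for CDH1 (0.0718) and SMARCE1, a chromatin remodeling subunit, for COL1A2 (0.0966). The genes nearest to MYL9 were P14ARF (0.446) and OCRL, a lipid phosphatase (0.534), and both were called lower in IPEC-J2 as MYL9 was. For TAGLN the nearest genes, SLC5A1 and NELFCD, were at distances of 1.99 and 2.12, and both were also at the floor on IPEC-J2 replicate 3 alone. The distances describe these 6 arrays and were not tested.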

How the data were processed

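RNA of 3 IPEC-J2 and 3 IPEC-1 cultures was hybridised to Affymetrix Porcine Genome Arrays. The authors made the deposited log2 signals with GCOS 1.1.1 and PLIER per the submitters' processing notes, and the methods name scaling of whole arrays, correction for background and the summary of probe sets. Neither the base of the logarithm nor how arrays were normalized against each other is stated for the table. The signals were read as log2 because the floor of 4.00 is the log2 of 16. No detection calls were used, and precision is limited by how few arrays there were. Within a cell line, arrays had Pearson correlations of 0.920 to 0.937 over the probe sets tested, and 0 pairs of arrays held the same values.

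Of 24123 probe sets, 124 controls were left out, and 7677 at the floor on all arrays were kept out of the fit because they have no spread. Of the 23999 without controls, 10069 had 1 symbol in the platform annotation, 198 several and 13732 none. All 16 probe sets of the identity genes carried the same symbol in the RefSeq gene table. Probe sets, and gene means over probe sets with 1 symbol, went into limma (version 3.58.1, under R 4.3.3, with lmFit and eBayes, no block, two-sided, Benjamini-Hochberg over all probe sets or genes tested). In simulated data of 16322 probe sets, 49 of 100 changes of 1 and 90 of 100 changes of 2 on the log2 scale were recovered. There were 7 calls among unchanged probe sets. The changes were set only in probe sets with a high mean signal, with normal noise and no floor. Fewer probe sets were changed than were called in the real data, and recovery at low signals was not simulated. All probe sets of the identity genes are named, and of each list up to 4 called genes in each direction with the largest differences, while other genes were chosen after their values were seen. The identity genes and the lists were chosen with earlier results of these data known, and genes of the lists without a probe set of 1 symbol were not analysed here. The fits were repeated with leaving out each array, blocks by title number and by note, the brightest probe set of a symbol, filters on low signals, quantile normalization, an offset of 16, arrays set to the same 75th percentile, robust and trended variances, and the t-test of the methods. The level for lower bounds was taken over signals above the floor, as the stricter reading of the planned rule.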

Additional observations from a re-analysis of the deposited data

How the results depend on the processing

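The lack of calls among the epithelial probe sets held in 19 of 20 other settings and ended with the methods' t-test without adjustment, which called 1 higher (EPCAM) and 1 lower (KRT18), and 1 FN1 probe set higher. With trend and robust options 1 mesenchymal probe set (FN1) was higher. The 2 lower mesenchymal probe sets became 1, with MYL9 lost, with floor probe sets kept in the fit and by the methods' t-test after adjustment, and 0 in the fit of the 4 arrays of notes A and B with the note as a replicate block, which has 1 residual degree of freedom and called 0 probe sets higher and 0 lower (1445 and 1877 at an unadjusted p under 0.05 from limma). Among the fits that held MFAP5, it was lost in this one alone. The filter to probe sets above the floor on all 6 arrays left MFAP5 out, and its 2 lower calls were VIM and MYL9. With 1 array left out the lower mesenchymal calls ran from 1 to 2, with 1 without IPEC-J2 replicate 2 or 3 or IPEC-1 replicate 1. Without IPEC-1 replicate 2 the 2 calls were MFAP5 and VIM, with MYL9 lost (adjusted p = 0.0853 from limma). Over all probe sets, 662 and 762 genes were higher and lower as means over the probe sets of a symbol, 806 and 942 with the brightest probe set, 2387 and 2934 by the methods' t-test without adjustment, and 722 to 1569 and 870 to 1300 with 1 array left out. The higher calls were 865 without IPEC-J2 replicate 2 and 722 without replicate 3, and the lower calls 870 without IPEC-J2 replicate 3, 1050 without IPEC-1 replicate 2 and 965 without IPEC-1 replicate 3.

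With the title number as a replicate block, 465 probe sets were higher and 493 lower, against 1435 and 1660 without it, and TAGLN was called (adjusted p = 0.0373 from limma). Deviations of arrays with the same number had correlations of -0.04, -0.12 and 0.02. The correlations were 0.05 in note A and 0.17 in note B. IPEC-J2 replicate 2 and IPEC-1 replicate 3, which share neither number nor note, had 0.13. Whether the same number marks paired cultures was not tested.

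The sign changed for the brighter CDH1 probe set with quantile normalization (-0.052), in the mean with the dimmer one (-0.105) and with 1 array left out (-0.063 to 0.067). It changed for the dimmer CDH1 probe set with 1 array left out (-1.29 to 0.72), for the dimmer KRT8 probe set in the fit by note (-0.085) and without 1 array (-0.02 to 0.22), and for the dimmer FN1 probe set in the fit by note (-0.08) and without 1 array (-0.05 to 0.14). The gene CTNNB1 turned to 0.32 with its brightest probe set. VIM passed in 7 of 20 other settings, among them the methods' t-test without adjustment, and MYL9 failed in 7. The adjusted p from limma ran from 0.0179 to 0.170 for VIM and from 0.00595 to 0.228 for MYL9. The lowest p of VIM came from probe sets above the floor on all 6 arrays, a filter chosen after seeing the data. The cause of these changes was not tested, apart from the fewer arrays or probe sets in a fit.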

Other observations

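A few markers of other cell types had low signals, lower in IPEC-J2 than in IPEC-1. CD3E, a T cell gene, stayed at the floor throughout IPEC-J2 and had 5.60, 6.13 and 6.05 in IPEC-1. PECAM1, an endothelial gene, had a gene mean of 4.00, 4.87 and 4.00 in IPEC-J2 and of 5.88, 5.65 and 5.71 in IPEC-1, and lost its call without IPEC-J2 replicate 3 (adjusted p = 0.0529 from limma) or IPEC-1 replicate 1 (0.0505). All these signals lie below the level of 7.85 that a probe set can reach on 1 array of IPEC-1. APOA1, an apolipoprotein of enterocytes and liver, had 11.27, 10.44 and 10.78 in IPEC-J2 and 9.90, 10.72 and 10.53 in IPEC-1 and did not pass (adjusted p = 0.332 from limma), whereas the enterocyte genes APOA4, FABP1 and FABP2 were at the floor on all arrays.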
